A study of Rattus norvegicus with 8 samples.

Results

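Chemokine ligands and receptors of the hippocampus were compared between adrenalectomized (ADX) rats infused with vehicle and ADX rats infused with corticosterone (CORT). The set holds 8 genes: the receptors Ackr3, Cxcr4 and Ackr1 and the ligands Cxcl12, Cx3cl1, Cxcl14, Cxcl16 and Ccl2. They were chosen by their place in the chemokine system and, for Ackr3, also by its deposited FPKM values in these same groups. All members were picked with the contrast known. The vehicle to CORT difference of every member, and the shares set beside it, are therefore given as a description. Every transcript row carrying one of these symbols was taken. Of the 8 genes, 7 have a row, with 1 Ensembl transcript each, among the 16266 transcripts and 13272 gene symbols of the table. Ackr1 has no row and has no value here.

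All rats had lost both adrenal glands, drank a corticosterone and saline solution during recovery from surgery, and were moved to saline alone before the experiment so that circulating corticosterone would wash out. The vehicle group of 4 rats received 0.45% saline, and the CORT group of 4 rats received corticosterone-2-hydroxypropyl-β-cyclodextrin at 0.75 mg/mL in the same saline, each through a jugular cannula for 30 min from ZT 2, early in the light phase. The hippocampi were collected 2 h after the infusion began, whereas the time label of each sample is ZT 2. The labels give Sprague-Dawley rats aged 3 to 4 months, and the methods give male Lister hooded rats of a younger age range. The labels describe the vehicle as saline only, so the cyclodextrin carrier and corticosterone cannot be told apart as treatments.

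RNA from whole hippocampi was sequenced, and the deposited table gives 1 FPKM value per transcript and group. FPKM counts fragments relative to transcript length and sequencing depth, so levels of different genes can be set side by side. No value belongs to a single rat. The spread between rats is therefore unknown here, no test between the groups was possible, and no difference below carries an error or a p-value. A transcript was called higher or lower when its FPKM differed by at least 1.5-fold and it reached 1 FPKM in at least one group. Under this rule 4% of 15808 transcripts were called higher and 4.45% lower in the CORT group, and their median log2 ratio of CORT over vehicle was 0.02. With each group scaled to the same FPKM total, 504 transcripts were called higher and 905 lower, in place of 632 and 703. Of 10 listed markers of hippocampal principal neurons 6 have a row. The excitatory neuron genes Slc17a7 (736 FPKM with vehicle and 794 with CORT), Camk2a and Neurod6 stood at high levels, and Prox1 was at 10.9 and 8.96 FPKM. Of 13 transcripts of known glucocorticoid target genes, 10 were called higher in the CORT group and none lower. That list was chosen with earlier results of these data known, so the count is a description only. Mt2A, at 70.5 FPKM with vehicle and 49.5 with CORT, was the 1 transcript of the list with a ratio below 0.

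Chemokines are small secreted or membrane-held proteins that steer cells through G protein-coupled receptors. CXCL12 acts on CXCR4, which signals through inhibitory G proteins, and on ACKR3, an atypical receptor formerly called CXCR7 that recruits arrestins and takes CXCL12 out of the tissue. In the hippocampus this axis is known for placing granule cell precursors, Cajal-Retzius cells and interneurons. CX3CL1 is made by neurons and read by CX3CR1 on microglia, and CCL2 draws monocytes during inflammation. Corticosteroids are known to restrain inflammatory chemokine genes in many tissues.

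The regulatory sequence of the CXCL12 axis is shown for its ligand and both of its receptors, because the receptors differed in opposite directions between the groups while the ligand did not reach the fold that was called. The runs are the 250 bases before the RefSeq start site in the GRCr8 assembly, a later build than the rn6 build of the expression table, written 5′ to 3′ along the transcribed strand. Capitals mark matches to TATAAA on either strand, and in Cxcr4 a match on each strand overlaps the other. Ackr3 lies at chr9:98247104-98247353 on the + strand, Cxcr4 at chr13:42634289-42634538 on the - strand and Cxcl12 at chr4:152060531-152060780 on the + strand.
Ackr3: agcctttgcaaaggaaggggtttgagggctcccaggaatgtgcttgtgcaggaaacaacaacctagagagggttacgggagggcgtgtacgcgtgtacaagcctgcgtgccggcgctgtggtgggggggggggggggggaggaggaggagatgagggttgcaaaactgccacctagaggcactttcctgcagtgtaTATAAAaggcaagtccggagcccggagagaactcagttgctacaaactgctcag
Cxcr4: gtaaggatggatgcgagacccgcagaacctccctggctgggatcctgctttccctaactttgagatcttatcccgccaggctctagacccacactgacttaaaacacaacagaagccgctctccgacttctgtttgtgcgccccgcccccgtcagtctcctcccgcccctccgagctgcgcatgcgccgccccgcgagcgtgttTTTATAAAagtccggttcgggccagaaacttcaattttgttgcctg
Cxcl12: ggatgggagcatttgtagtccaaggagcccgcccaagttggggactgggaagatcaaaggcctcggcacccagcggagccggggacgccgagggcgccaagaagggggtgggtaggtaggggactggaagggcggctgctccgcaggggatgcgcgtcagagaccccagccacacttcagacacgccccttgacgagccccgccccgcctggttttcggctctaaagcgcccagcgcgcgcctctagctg

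RefSeq promoters were found for 6 of the 8 genes, all except Ccl2 and Ackr1. TATAAA is present before Ackr3, starting 54 bases upstream of the start site, and before Cxcr4, starting 44 bases upstream, and it is also present before Cx3cl1. It is absent from the windows of Cxcl12, Cxcl14 and Cxcl16. Over all 33469 promoters of this length, 12.9% hold it. The glucocorticoid receptor hexamer TGTTCT, searched on both strands, is in none of the 6 windows and in 17.5% of all promoters. The palindromic element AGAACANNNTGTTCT, which contains that hexamer on each strand, is likewise in none of the 6 and in 4 promoters in all. The windows are short, and these letters say nothing about elements that lie elsewhere. The GC content was 58% before Ackr3, 57.6% before Cxcr4 and 67.6% before Cxcl12.

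In vehicle-infused rats the 7 transcripts spanned a wide range of levels. Cx3cl1 stood highest at 130 FPKM, and 4.09% of all transcripts were above it. Cxcl14 followed at 51.7 FPKM. Ackr3 and Cxcl12 lay near the median transcript of the table, at 10.1 and 9.30 FPKM against a median of 9.22 FPKM. Cxcl16 at 6.88 FPKM and Cxcr4 at 3.75 FPKM were below it, and Ccl2 was lowest at 1.18 FPKM, with 92.4% of transcripts above it. The order was the same in the CORT group, where the values ran from 147 FPKM for Cx3cl1 to 0.234 FPKM for Ccl2. Without values per rat, neighbours as close as Ackr3 and Cxcl12 in the vehicle group cannot be placed apart. The summed FPKM of the 7 transcripts was 213 with vehicle and 228 with CORT, most of it from Cx3cl1.

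**Figure D1:**
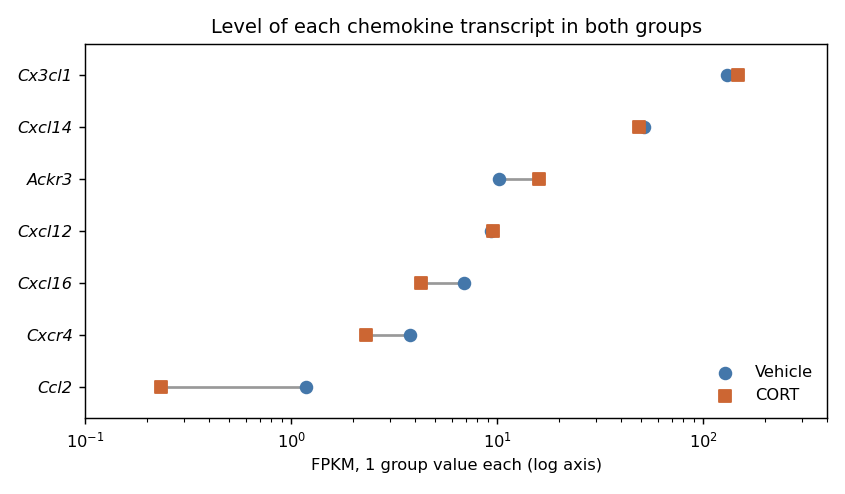
FPKM of the 7 chemokine transcripts on a log axis, with 1 value for the vehicle group (circles) and 1 for the CORT group (squares), joined by a line; no error can be drawn because each value stands for a whole group. Ackr3 sits to the right in the CORT group (10.1 to 15.9 FPKM), Cxcl16, Cxcr4 and Ccl2 sit to the left, and Cx3cl1, Cxcl14 and Cxcl12 nearly coincide.

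Of the 7 transcripts, 1 was called higher and 3 were called lower in the CORT group, beside 4% and 4.45% of all transcripts. These members were picked with the contrast known, so nothing about the set is read from the counts. The median log2 ratio of the 7 was -0.09, beside 0.02 for all transcripts. The lowest called ratio in size was that of Ackr3 at 0.65, where the threshold is 0.58, and the nearest uncalled one was that of Cx3cl1 at 0.18.

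The receptors of CXCL12 differed in opposite directions. Ackr3 (transcript ENSRNOT00000026558.3, rn6 chr9:97355923-97367445) stood at 10.1 FPKM after vehicle and at 15.9 FPKM after CORT, a 1.57-fold higher level and a log2 ratio of 0.65. Among transcripts that reached 1 FPKM, 3.42% had a larger ratio, and among those with a mean level between 10 and 20 FPKM, 1.28% were called higher. Ackr3 was chosen partly by these same values, so the shares place its ratio and do not measure how unusual it is. With each group scaled to the same FPKM total, the log2 ratio of Ackr3 was 0.56 and the call was lost. The CORT total includes a 5S ribosomal RNA transcript at 27466 FPKM, which was at 269 FPKM in the vehicle group. With totals taken over transcripts under 1000 FPKM, a setting added after the values were seen, the ratio of Ackr3 was 0.61, above the threshold. The part of the 5S transcript in the lost call was not tested.

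Cxcr4 (ENSRNOT00000005143.6, chr13:45314932-45318878), the signalling receptor, was at 3.75 FPKM without and 2.30 FPKM with CORT. The vehicle level was 1.63-fold that of the CORT group, a log2 ratio of -0.71. With a pseudocount of 1 FPKM the ratio was -0.53, under the threshold. At mean levels from 2 to 5 FPKM, where Cxcr4 lies, 6.67% of transcripts were called lower. Ackr3 stood at 2.70 times the level of Cxcr4 in the vehicle group and at 6.91 times in the CORT group.

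Cxcl12 (ENSRNOT00000066670.3, chr4:149261043-149273891), the ligand that both receptors bind, was at 9.30 FPKM without and 9.55 FPKM with CORT. Its log2 ratio of 0.04 was close to the median of all transcripts, and it turned to -0.05 when the groups were scaled to the same total. The table gives a single Cxcl12 transcript, so the splice forms of the ligand cannot be compared. Cxcl12 was at 0.918 times the level of Ackr3 in the vehicle group and at 0.601 times in the CORT group. It was at 2.48 times the level of Cxcr4 with vehicle and at 4.15 times with CORT, while its own level differed little.

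**Figure D2:**
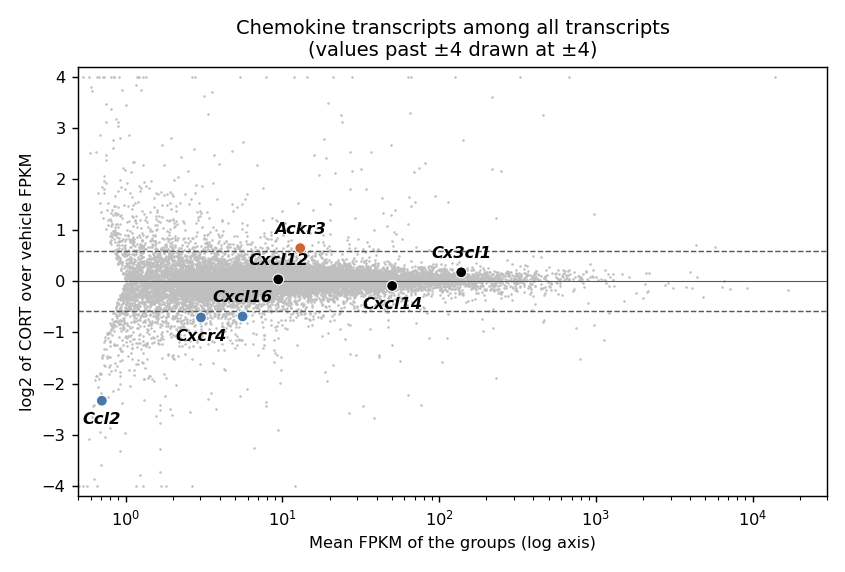
Each grey point is 1 of the 15808 transcripts that reached 1 FPKM in a group, placed by its mean FPKM (log axis) and by its log2 ratio of CORT over vehicle FPKM; dashed lines mark a 1.5-fold difference. Ackr3 (orange), chosen partly by these values, lies above the upper line. Cxcl16, Cxcr4 and Ccl2 (blue) lie below the lower line, and the cloud widens towards the level of Ccl2.

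The remaining ligands fell into a pair of abundant transcripts with small differences and a pair of scarcer ones at lower levels in the CORT group. Cx3cl1 (ENSRNOT00000022128.5, chr19:10644243-10653800), the membrane-held neuronal chemokine, was at 130 FPKM without and 147 FPKM with CORT, a log2 ratio of 0.18. Cxcl14 (ENSRNOT00000016009.5, chr17:9109730-9117750), a chemokine that hippocampal interneurons express, was at 51.7 and 48.7 FPKM, a log2 ratio of -0.09. Neither reached the fold that was called.

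Cxcl16 (ENSRNOT00000032926.4, chr10:57060006-57071096), the membrane-held ligand of CXCR6, was at 6.88 FPKM without and 4.28 FPKM with CORT. That is a log2 ratio of -0.69, and 3.44% of transcripts had a lower one. At mean levels from 5 to 10 FPKM 2.31% of transcripts were called lower. With a pseudocount of 1 FPKM the ratio was -0.58, just short of the threshold. Cx3cl1 and Cxcl16, both membrane-held, had ratios of opposite sign, and Cx3cl1 was at 18.9 times the level of Cxcl16 in the vehicle group and at 34.3 times in the CORT group.

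Ccl2 (ENSRNOT00000009448.3, chr10:69412016-69413870), the monocyte attractant, had the largest ratio of the set and the lowest levels. It was at 1.18 FPKM without and 0.234 FPKM with CORT, a log2 ratio of -2.33. It passed the minimum of 1 FPKM through the vehicle group alone, so its value with CORT had to be lower. Its mean was 0.706 FPKM, and of the 374 transcripts that passed with a mean under 1 FPKM, 36.9% were called lower and 31.8% higher. The ratio was -1.94 with a pseudocount of 0.1 FPKM and -0.82 with one of 1 FPKM. The number of reads behind such a level is not known, so a limit of detection cannot be given.

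No other row of the table overlaps the locus of any of the 7 transcripts.

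The other genes of the chemokine system were mostly absent from the table or low. Of 31 other ligands 8 have a row, all 8 reached 1 FPKM in a group, 4 were called lower and none higher, and their median log2 ratio was -0.65. Over all transcripts 4.45% were called lower, and the share was 6.67% at mean levels from 2 to 5 FPKM, where Pf4 and Ccl19 lie, and 36.9% under 1 FPKM, where Ccl6 and Cxcl10 lie. Pf4, platelet factor 4, was at 6.63 FPKM without and 2.86 FPKM with CORT. Ccl19, a ligand of CCR7, was at 4.47 and 2.35 FPKM. Ccl6 was at 1.35 and 0.637 FPKM, and Cxcl10, an interferon-induced ligand of CXCR3, was at 1.07 and 0.284 FPKM. Ccl6 and Cxcl10 reached the minimum only in the vehicle group, as Ccl2 did. Ccl27 was the most abundant of them at 26.3 and 27.7 FPKM, and it shares its locus with Il11ra1, so its reads may be divided between the genes.

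Of 22 other receptors and co-receptors 7 have a row. They hold 8 transcripts, of which 7 reached 1 FPKM, 1 was called lower and none higher, and the median log2 ratio of those 7 was -0.48. The share called lower over all transcripts was 4.45%. Cxcr1, a neutrophil chemokine receptor, was the one called, at 5.93 FPKM without and 3.28 FPKM with CORT. Cx3cr1, the microglial receptor of CX3CL1, was at 15.6 and 10.6 FPKM, a log2 ratio of -0.55 that did not reach the threshold. Cd74, a receptor for MIF that pairs with CXCR4, was at 36.3 and 24.6 FPKM in its more abundant transcript. Cx3cl1 and Cx3cr1 thus had ratios of opposite sign, neither of them called. Ccr2 and Cxcr6, the receptors of CCL2 and CXCL16, have no row in the table.

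The G proteins, arrestins and receptor kinases differed little. Of 11 transcripts of inhibitory G proteins, arrestins and receptor kinases 1 was called higher, a scarce Adrbk2 transcript at 1.47 FPKM without and 2.25 FPKM with CORT. Their median was 0.15. The shares called higher and lower over all transcripts were 4% and 4.45%. Gnai2 was at 160 and 149 FPKM, and Adrbk1, which encodes GRK2, was at 80.0 and 90.0 FPKM. The arrestin genes Arrb1 and Arrb2, whose products bind ACKR3, were not called, at log2 ratios of 0.16 and 0.03. None of 4 protease transcripts was called, but all 4 had a ratio below 0, and their median was -0.34. Among them Adam10, which sheds CX3CL1 and CXCL16, was at 18.8 and 18.1 FPKM. Adam17 was at 9.01 and 7.22 FPKM, and Mmp14 was at 9.66 and 6.90 FPKM. Of 10 transcripts for other ACKR3 ligands and their receptors 1 was called lower, a minor Penk transcript at 2.70 and 1.01 FPKM. The main Penk transcript was at 20.6 and 20.5 FPKM, Pdyn at 33.5 and 41.6 FPKM and Ramp2 at 30.5 and 29.3 FPKM.

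**Figure D3:**
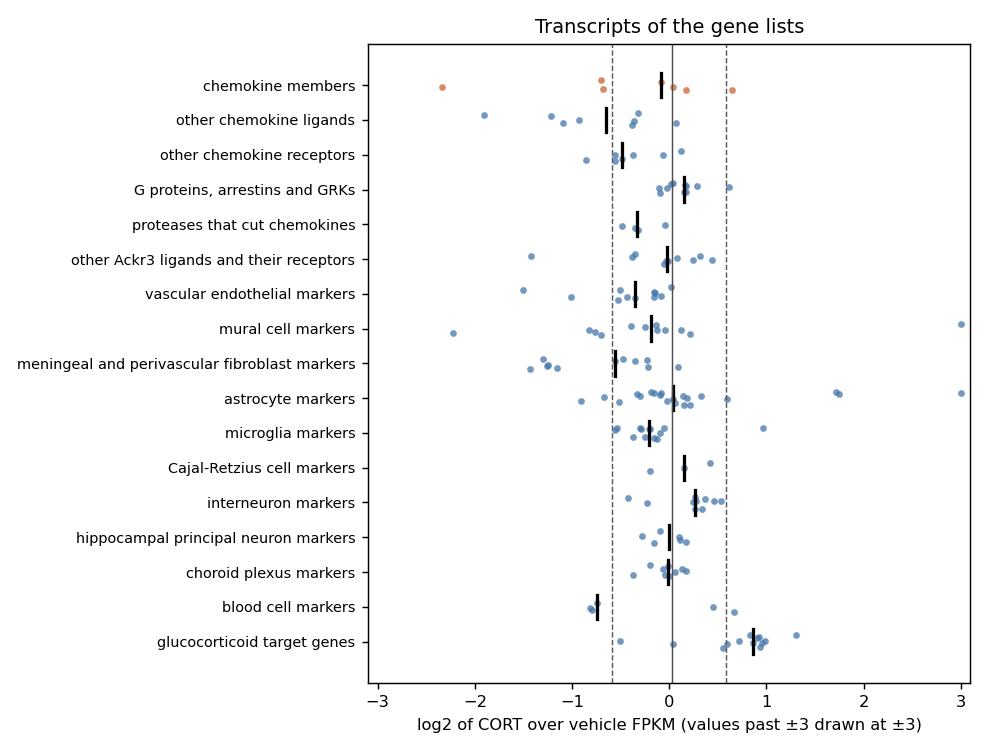
Log2 ratio of CORT over vehicle FPKM for each transcript that reached 1 FPKM in a group, by gene list, with a black bar at the list's median, a thin line at the median of all transcripts (0.02) and dashed lines at 1.5-fold. Ratios of the other chemokine ligands and receptors lie mostly below 0, beside 7061 of all 15808 transcripts that reached 1 FPKM. Those of the protease, endothelial, mural, fibroblast and microglia lists do so too. Glucocorticoid target genes, a list chosen with earlier results of these data known, lie mostly above the upper line.

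Markers of the cell types of the tissue are given beside these values. In bulk tissue, fewer cells of a type and less RNA per cell cannot be told apart. Over all transcripts 4.45% were called lower and 4% higher. Of the 15808 transcripts that reached 1 FPKM in a group, 7061 had a ratio below 0. The share called lower ran from 0.817% at mean levels of 20 to 100 FPKM to 36.9% under 1 FPKM. The share called higher ran from 1.28% at 10 to 20 FPKM to 31.8% under 1 FPKM. Of 13 microglia transcripts 12 had a ratio below 0, none was called lower and 1, Tmem119, was called higher, and their summed level was 395 FPKM without and 335 FPKM with CORT. Among them C1qa was at 71.8 and 67.4 FPKM, and Aif1 was at 52.9 and 36.4 FPKM. Of 11 vascular endothelial transcripts 10 were below 0 and 2, Kdr and a scarce Slco1a4 transcript, were called lower, with sums of 113 and 95.7 FPKM. That Slco1a4 transcript reached 1 FPKM only in the vehicle group and so had to be lower with CORT. Cldn5 was at 50.8 and 45.6 FPKM, and Pecam1 has no row. Of 11 meningeal and perivascular fibroblast transcripts 10 were below 0 and 5 were called lower, namely Col3a1, Aldh1a2, Col1a1, Slc6a13 and Slc22a6. The sums of the 11 were 190 and 144 FPKM. The most abundant transcripts of this list, those of Igf2, Mgp, Slc13a4 and Dcn, were not called. Their log2 ratios were -0.35, -0.22, -0.23 and 0.09.

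Mural cell markers summed to 193 FPKM without and 93.1 FPKM with CORT, mostly through Tagln at 105 and 22.5 FPKM. Of their 12 transcripts 4 were called lower, beside 4.45% of all transcripts, namely Tagln, Vtn, Acta2 and the more abundant Pdgfrb transcript. 1 was called higher, a scarce Tagln transcript that reached 1 FPKM only in the CORT group. Rgs5 was at 34.1 and 31.2 FPKM and was not called. Of 5 blood transcripts the 3 red cell ones were called lower, with Hbb at 580 and 334 FPKM, Hba1 at 583 and 347 FPKM and Alas2 at 2.86 and 1.62 FPKM. The neutrophil genes went the other way, with S100a9 called higher at 3.43 and 5.43 FPKM and S100a8 not called at a log2 ratio of 0.45. No marker with a row was listed at 0.

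Interneuron markers had 10 transcripts, none of them called, a median of 0.27 and sums of 597 and 720 FPKM, with Sst at 151 and 195 FPKM. The 6 principal neuron transcripts had a median of 0.00, and none was called. Of 21 astrocyte transcripts 4 were called higher and 2 lower, beside 4% and 4.45% of all transcripts. Their median was 0.04 and their sums were 3397 and 3005 FPKM. Of the 4 called higher, scarce transcripts of Aldh1l1, Aldoc and Aqp4 reached 1 FPKM only in the CORT group and so had to be higher. The other was a Gjb6 transcript with a log2 ratio of 0.59. The 2 called lower were Gfap, at 970 FPKM without and 517 FPKM with CORT, and the more abundant Aldh1l1 transcript, at 6.39 and 4.02 FPKM. The most abundant transcripts of Aqp4 (93.6 and 65.5 FPKM) and Aldoc (501 and 557 FPKM) were not called. S100b was at 1066 and 1095 FPKM. Cajal-Retzius cell markers have rows for 3 of 7 symbols, Calb2 at 19.1 and 16.7 FPKM, Reln at 5.38 and 7.18 FPKM and Ndnf at 3.26 and 3.63 FPKM, with sums of 27.7 and 27.5 FPKM, and none was called. Choroid plexus markers had sums of 6770 and 6758 FPKM, with none of 9 transcripts called. The part of any of these cell types in the values of Ackr3, Cxcl16, Cxcr4 and Ccl2 was not tested.

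The transcripts nearest to Ackr3 were found by the distance between log2 FPKM values over the 2 group values. The 5 nearest were Fam107a (10.7 and 15.8 FPKM), Mchr1 (10.4 and 16.6 FPKM), Tnfrsf25 (10.5 and 17.0 FPKM), Aspa (9.83 and 14.6 FPKM) and Spsb1 (9.82 and 14.5 FPKM), at distances of 0.08 to 0.14. Nearest to Cxcl12 were Dis3l2, Pgm3, Zmym4, Kdm5b and Acsf3, all at distances of 0.01. With only 2 values per transcript many transcripts resemble each other in this sense.

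**Figure D4:**
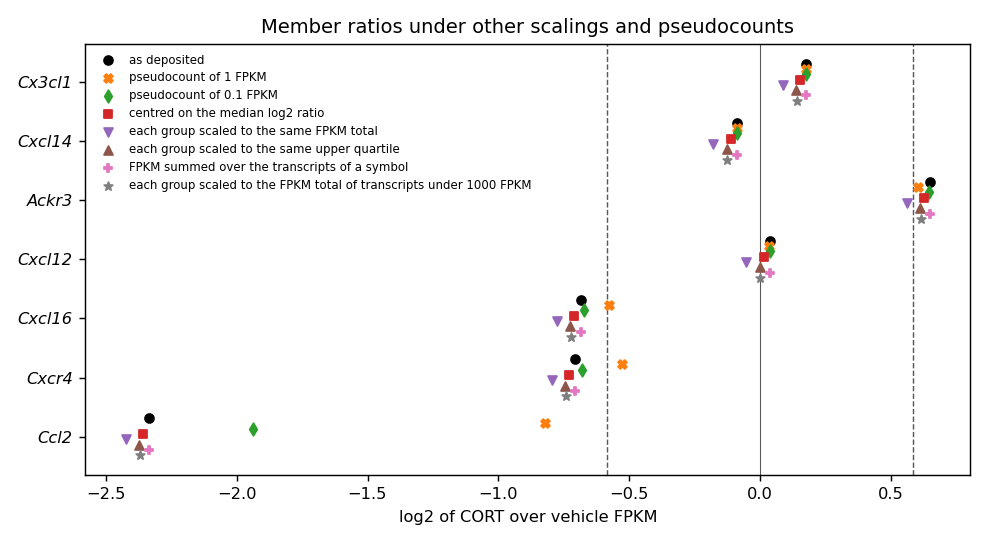
Log2 ratio of CORT over vehicle FPKM of each chemokine transcript with the deposited values (black) and under 7 alternatives; dashed lines mark 1.5-fold. Ackr3 falls inside the upper line when the groups are scaled to the same FPKM total (0.56), and Cxcl16 and Cxcr4 fall inside the lower line with a pseudocount of 1 FPKM (-0.58 and -0.53).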

How the data were processed

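Total RNA of 8 whole rat hippocampi was sequenced by the authors from stranded TruSeq libraries. According to the submitters' processing notes and the study's methods, reads were aligned to rn6 with TopHat2 2.0.10 and compared with Cuffdiff 2.2.0, using geometric normalization between libraries and corrections for multiply mapped reads, sequence bias and effective length. The authors deposited FPKM values, 1 per transcript and group, after removing transcripts below their minimum number of alignments. The deposited table also holds the authors' own fold changes, test statistics, p-values and q-values, which were not used.

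Ratios of CORT over vehicle FPKM were computed on the log2 scale without a pseudocount. A transcript was called when it differed by at least 1.5-fold and reached 1 FPKM in at least one group. No test was run, since the table holds no value per rat, and the depth of each library is unknown. The calling code was run on simulated data with planted fold changes and the same small scatter at every level. That run checks the code and says nothing about the calls made at low levels. The gene lists and members were chosen with earlier results of these data known. Genes named from the lists were mostly those called and the more abundant ones, with some others added, and not every list gene is named. Alternatives were other pseudocounts, filters, folds and scalings and summed transcripts; the scaling to transcripts under 1000 FPKM was added after the values were seen. Symbols were matched exactly to the table, with GRK2 and GRK3 under Adrbk1 and Adrbk2. Promoters came from RefSeq. Python 3.11.15, numpy 2.4.6, pandas 2.3.3 and matplotlib 3.10.9 were used.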

Additional observations from a re-analysis of the deposited data

How the results depend on the processing

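With a pseudocount of 1 FPKM, 1 member transcript was called lower in place of 3, and 354 transcripts in all were called higher and 365 lower. With a fold of 2, no member was called higher (0) and 1, Ccl2, was called lower, and the counts over all transcripts were 282 and 280. With each group scaled to the same FPKM total, 0 members were called higher. With a fold only 25% above 1, 1449 and 1604 transcripts were called, with at least 1 FPKM in both groups 376 and 431, and with FPKM summed over the transcripts of a symbol 222 and 446. Fewer transcripts enter under the last pair of settings by construction. A higher fold or a pseudocount can only remove calls, and a lower fold can only add them. Scaling to the same FPKM total lowers every log2 ratio by 0.09. What else moved the counts was not tested. With 1 FPKM required in both groups, Ccl2 was left out and 2 members were called lower. The other alternatives gave the main member counts of 1 and 3. None of 49 member ratios computed under alternatives reversed the sign of a call, and 4 moved by 0.1 or more on the log2 scale, namely those of Ccl2 with either pseudocount and of Cxcl16 and Cxcr4 with a pseudocount of 1 FPKM.

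Leaving out each rat in turn was not run, because the table holds group values only. No paired analysis was possible because each group has a single column of values. The depth of the libraries is unknown, which limits Ccl2, Cxcr4 and the other scarce transcripts most.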
